A study of Sus scrofa with 12 samples.

Results

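The rows studied here are the amino acid transporter genes of the solute carrier (SLC) families in porcine oviduct epithelial cells. They are the rows of the expression table whose symbol belongs to the SLC1, SLC3, SLC6, SLC7, SLC15, SLC17, SLC32, SLC36, SLC38 or SLC43 families, plus SLC16A10. The choice used symbols alone and no measured value, although earlier results of these data were known when it was made. It gave 53 of 30461 gene rows, each with its own symbol, and 32 of the 53 had enough counts to be tested. Other carriers of these families, among them SLC7A5 and SLC43A1, were not analysed here, and 56.5% of the gene rows carried no symbol.

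The 12 bulk 3′ mRNA sequencing libraries came from pig (Sus scrofa) oviduct epithelial cells, 4 from each of 3 groups. The fresh cells were scraped from the oviduct as single cells. The spheroids, 3-dimensional clusters formed in culture, were made in DMEM/F12 or in a medium called incubation medium. In the names of the libraries the DMEM/F12 spheroids are marked FBS and the incubation medium spheroids Diff, and the labels explain neither mark, nor the composition of either medium, nor the age of the animals or the length of culture. Nothing in the labels says that the 4 libraries of a group came from separate animals, so p-values measure the spread between these libraries, which may be technical.

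Amino acid carriers move amino acids, short peptides and related compounds across the plasma membrane and the membranes of lysosomes and vesicles. Sodium-coupled carriers such as those of the SLC1, SLC6 and SLC38 families concentrate their substrates in the cell, whereas the SLC7 light chains bound to an SLC3 heavy chain exchange amino acids across the membrane. In the oviduct the epithelium sets the amino acid content of the luminal fluid, in which glycine, taurine, glutamine and alanine are prominent and from which the early embryo is supplied. SLC families are named by sequence similarity, so the rows also include carriers of taurine, creatine, transmitters, nucleotides and sialic acid.

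Library totals ranged from 5045187 to 8603774 counts and were lower in every fresh cell library than in any spheroid library. Levels are CPM, counts relative to library size, with library sizes scaled by TMM, a method that balances the fold changes of most genes. Since reads come from the 3′ end and depend on the transcript, levels are compared between libraries of a gene and not between genes. A gene was called where the adjusted p of edgeR's quasi-likelihood test, with Benjamini-Hochberg adjustment over 14070 tested genes, was under 0.05. A count of 3 or fewer in a library is at the floor, since a true level of up to 3 counts can give a count of 0, and this covers counting error only. Of the 53 genes, 21 did not pass the filter on low counts. Of these, 11 never had more than 3 counts in a library, and the highest count of the other 10 was 39.

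In spheroids of both media the taurine carrier SLC6A6, the glutamate carrier SLC1A1 and the glutamine carriers SLC1A5 and SLC38A5 rose, and the peptide carrier SLC15A2, the glutamate carrier SLC1A3 and SLC38A11 fell. SLC6A6 rose 16.7-fold in DMEM/F12 and 25.8-fold in incubation medium, and SLC15A2 was 18.6-fold and 7.45-fold lower. The media differed most in SLC43A2, a carrier of branched-chain amino acids, which rose in DMEM/F12 and fell in incubation medium. SLC1A5 and the exchanger heavy chain SLC3A2 were higher in incubation medium than in DMEM/F12. In bulk samples, fewer cells of a type and less RNA per cell cannot be told apart.

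Of the 32 tested transporter genes, 16 rose and 10 fell in DMEM/F12 spheroids against fresh cells, and 16 rose and 9 fell in incubation medium spheroids. That is 81.2% and 78.1% of them, beside 70.7% and 71.7% of all tested genes called in these comparisons, so a call against fresh cells was common among genes in general. In each comparison 24 of the 32 had no overlap between groups, beside 65.4% and 65.0% of all tested genes. In each, 20 of the 32 (62.5%) were called and differed at least 2-fold, beside 35.4% and 36.8% of all tested genes. The median absolute log2 fold change was 1.37 and 1.58 for the transporters and 0.69 and 0.72 for all tested genes. The signed medians were 0.53 and 0.41, against -0.01 and -0.01. Setting SLC1A6, the tested transporter at the floor in fresh cells, to its bound left them at 0.53 and 0.41. That could not move them, since its bounds also lie above both medians. Between the media 12 rose and 3 fell in incubation medium, 46.9% beside 25.0% of all tested genes. The signed median between the media was 0.28 and that of all tested genes 0.00. Every comparison comes from the same fit, and both comparisons with fresh cells share the fresh cell libraries. A member that passes the filter on the strength of a single group is likely to differ between groups. Of the 32, 25 were above the filter's level of 1.30 CPM in every library of every group. A further 1 was above it in all libraries of a pair of groups. Another 4 were above it in all libraries of a single group: SLC16A10 and SLC1A3 in fresh cells, SLC1A6 in DMEM/F12 and SLC3A1 in incubation medium. The last 2, SLC15A1 and SLC17A7, were above it in no complete group. SLC15A1 was above it in spheroid libraries alone.

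Several marker lists moved with the groups. Summed CPM of the multiciliated cell list (6 of 12 genes measured) was 1100.1 to 1255 in fresh cells, 125 to 316 in DMEM/F12 spheroids and 125 to 225 in incubation medium spheroids. The proliferation list (7 of 10) went the other way, at 34.7 to 49.996, 289.7 to 336 and 321 to 487. The secretory list (5 of 10) was at 19221 to 30200, 998 to 2026 and 1029 to 2050, with CRISP3 at 0 in every library. In fresh cells that sum was mostly OVGP1, at means of 22241, 400 and 471. OVGP1, SLPI and TFF3 fell in both media, whereas MUC1 (159, 545 and 474) rose in both. The epithelial list (5 of 7, with KRT8 on 2 rows) was present in every group, at 3727 to 4372, 5956 to 7393 and 4141 to 6147. Its genes CDH1, KRT8 and KRT18 rose in both media. EPCAM (904, 628 and 715) fell in DMEM/F12, and CLDN4 (1656, 2720 and 1011) rose in DMEM/F12 and fell in incubation medium. Markers of other cell types were at 253 to 415, 1074 to 1223 and 233 to 542 for stroma and smooth muscle (7 of 12), with DES at no more than 1 count in any library. That sum was mostly TAGLN, at means of 266, 1119.9 and 380.2, the single stromal gene that rose. Against it COL1A2 (18.9, 2.03 and 4.42) and COL3A1 (24.1, 0.574 and 0.358) fell in both media, and COL1A1 (31.1, 22 and 3.44) and PDGFRA in incubation medium. Leukocyte markers (7 of 12) were at 1882 to 2188, 1516 to 1775 and 1972 to 2217, mostly CD74 at means of 1999, 1633 and 2108. Of the 5 tested, PTPRC (7.01, 2.54 and 1.19), ITGAM (6.88, 0.838 and 1.11) and AIF1 (9.88, 3.27 and 4.12) fell in both media, CD74 fell in DMEM/F12, and CD14 was not called. Endothelial markers (6 of 8) were at 41.9 to 57.7, 137 to 253 and 92.6 to 149, with VWF at no more than 1 count in any library. KDR (20.9, 74.1 and 60.6) and CDH5 (11.4, 108 and 43) rose in both media and ESAM in incubation medium, whereas PECAM1 (15.1, 7.94 and 8.03) fell in both. The part of these lists in the transporter results was not tested. With counts of every library thinned to the smallest total, 29 transporters were tested, of which 15 rose and 9 fell in DMEM/F12, 15 rose and 8 fell in incubation medium, and 11 rose and 3 fell between the media.

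**Figure D1:**
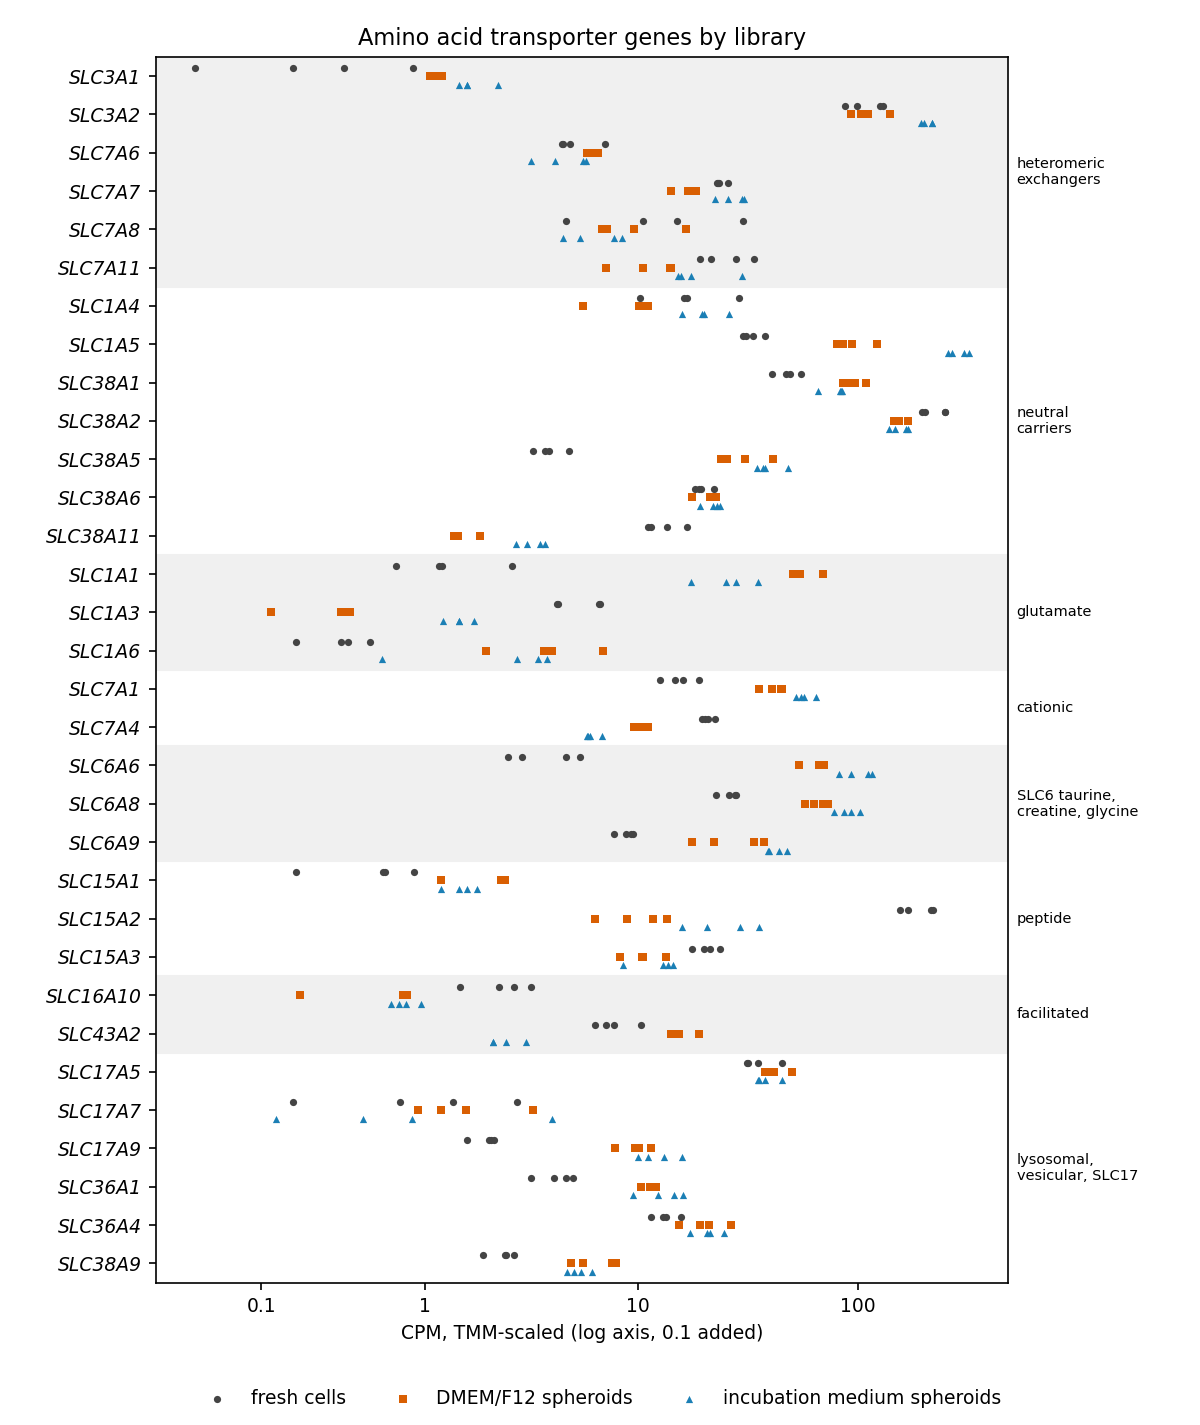
CPM of the 32 tested amino acid transporter genes in each of the 12 libraries, on a log axis with 0.1 CPM added, grouped by kind of carrier; grey circles are fresh cells, orange squares DMEM/F12 spheroids and blue triangles incubation medium spheroids. SLC6A6, SLC1A1 and SLC38A5 lie higher in all 8 spheroid libraries than in the fresh cells, and SLC15A2, SLC1A3 and SLC38A11 lie lower.

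The exchangers of the SLC3 and SLC7 families work as pairs of a heavy and a light chain. Of 6 tested, 1 rose and 2 fell in DMEM/F12, 2 rose and 1 fell in incubation medium, and 3 rose between the media. That is 50% in each comparison, beside 70.7%, 71.7% and 25.0% of all tested genes. SLC3A2 (ENSSSCG00025073640), the heavy chain that carries most of these light chains to the cell surface, was at 99, 126, 130.1 and 87.3 CPM in fresh cells 1 to 4 and 93.3, 111, 140.1 and 104 CPM in DMEM/F12 spheroids. In incubation medium spheroids it was at 217, 200.4, 217 and 193 CPM. The fresh and DMEM/F12 libraries overlapped, and the incubation medium libraries were all higher than both. Its log2 fold change was 0.02 in DMEM/F12 (95% interval -0.28 to 0.31; adjusted p = 0.913) and 0.90 in incubation medium (SE 0.14, adjusted p = 3.88e-05). Between the media it rose by 0.88 (SE 0.14, adjusted p = 0.000379). Counts of SLC3A2 were not whole in 6 of 12 libraries.

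SLC7A11 (ENSSSCG00025010386), the light chain that takes up cystine in exchange for glutamate, was at 28.2, 19.2, 34 and 21.6 CPM in fresh cells. DMEM/F12 spheroids had 14.1, 10.6, 14.3 and 7.2 CPM and incubation medium spheroids 29.9, 15.4, 17.6 and 15.7 CPM. All DMEM/F12 libraries were below the fresh cells, while incubation medium spheroid 1 stood among the fresh cells and the other 3 below them. It fell in DMEM/F12 (log2 fold change -1.16, SE 0.26, adjusted p = 0.0012) and was not called in incubation medium (-0.39, 95% interval -0.93 to 0.16, adjusted p = 0.185). That value was called with the replicate block (-0.40, adjusted p = 0.0305) and without incubation medium spheroid 1 (-0.65, adjusted p = 0.0225), and the adjusted p ranged from 0.0225 to 0.480 over the alternatives run. The difference between the media was called (0.77, adjusted p = 0.0428). It lost its call without fresh cells 1 (0.78, adjusted p = 0.0515), DMEM/F12 spheroid 2 (0.73, 0.0984) or 4 (0.60, 0.117), or incubation medium spheroid 1 (0.49, 0.156) or 3 (0.83, 0.0571). It was also lost with library totals (0.68, 0.0706), with only the groups compared (0.77, 0.0524) and with thinned counts (0.70, 0.0786), and its adjusted p ranged from 0.00228 to 0.156.

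SLC7A7 (ENSSSCG00025073439), the light chain that exports arginine and lysine in exchange for neutral amino acids, was at 25.9, 23.1, 23.2 and 23.5 CPM in fresh cells, 14.2, 17, 18.4 and 14.3 in DMEM/F12 and 25.8, 30.0, 30.6 and 22.4 in incubation medium. It fell in DMEM/F12 (log2 fold change -0.59, SE 0.12, adjusted p = 0.000739), with every library below the fresh cells. In incubation medium it was not called (0.18, 95% interval -0.08 to 0.44, adjusted p = 0.184), except without incubation medium spheroid 4 (0.28, adjusted p = 0.0428, over all alternatives 0.0428 to 0.348). The media differed by 0.77 (SE 0.12, adjusted p = 0.000436), all 4 incubation medium libraries being higher. Its relative SLC7A6 (ENSSSCG00025061079) was called in no comparison. Its levels were 5.25 ± 1.25, 6.18 ± 0.334 and 4.69 ± 1.22 CPM (mean ± SD, n = 4), and its log2 fold changes against fresh cells were 0.24 (95% interval -0.22 to 0.70) and -0.16 (-0.63 to 0.31).

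SLC7A8 (ENSSSCG00025076693), a light chain for neutral amino acids, was at 15.1, 10.6, 30.1 and 4.7 CPM in fresh cells, a wide spread. It was at 16.7, 9.64, 7.28 and 6.84 CPM in DMEM/F12 and 8.47, 5.47, 7.82 and 4.57 CPM in incubation medium, so the groups overlapped in every comparison. Only the fall in incubation medium was called (-1.19, SE 0.44, adjusted p = 0.0257). It lost its call without fresh cells 3 (-0.62, adjusted p = 0.172), without incubation medium spheroid 2 (-1.09, 0.0638) or 4 (-1.03, 0.0685) and with limma-voom (-0.94, 0.0846), with adjusted p over all alternatives from 0.00343 to 0.172. In DMEM/F12 its log2 fold change was -0.58 (95% interval -1.49 to 0.33, adjusted p = 0.234), -0.01 without fresh cells 3 and -0.87 without fresh cells 4, the single alternative that called it (adjusted p = 0.0489, range 0.0489 to 0.983). SLC3A1 (ENSSSCG00025031222), the heavy chain of the cystine and dibasic amino acid exchanger, had 0 to 5 counts in fresh cells, 8 to 10 in DMEM/F12 spheroids and 12 to 19 in incubation medium spheroids. It rose in both media, by 1.58 (adjusted p = 0.013) and 2.20 (adjusted p = 0.000933) on the log2 scale. It passed the filter through its incubation medium libraries alone. Without fresh cells 1 the remaining fresh counts were at the floor, and it was at least 2.01-fold and at least 3.09-fold higher. Its light chain SLC7A9 was not tested. It had 39, 1, 16 and 1 counts in fresh cells 1 to 4, and 7 or fewer in every spheroid library. SLC7A10, another light chain, did not exceed 2 counts in any library.

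Of 7 tested carriers of neutral amino acids, SLC1A5, SLC38A1 and SLC38A5 rose in both media, SLC38A2 and SLC38A11 fell in both, SLC1A4 fell in DMEM/F12, and SLC38A6 was not called. The shares called were 85.7% and 71.4%, beside 70.7% and 71.7% of all tested genes. SLC1A5 (ENSSSCG00025063221), which exchanges glutamine and other small neutral amino acids, was at 30.1, 37.8, 33.5 and 31.2 CPM in fresh cells. It was at 80.8, 94.6, 123 and 86.2 CPM in DMEM/F12 and 304, 320.5, 269 and 256 CPM in incubation medium. The groups stood in 3 separate ranges, with fresh cells lowest and incubation medium highest. SLC1A5 rose 2.9-fold in DMEM/F12 (log2 1.53, SE 0.13, adjusted p = 1.67e-07) and 8.66-fold in incubation medium (log2 3.11, SE 0.14, adjusted p = 3.02e-10). Between the media it was 2.99-fold higher in incubation medium (log2 1.58, SE 0.13, adjusted p = 2.94e-06).

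SLC1A4 (ENSSSCG00025035199), a carrier of alanine, serine and cysteine and the closest relative of SLC1A5 among these genes, differed from it in direction in DMEM/F12. It was at 10.3, 28.9, 16.8 and 16.4 CPM in fresh cells, 5.6, 10.1, 11.1 and 10.4 in DMEM/F12 and 16, 26.1, 20.1 and 19.6 in incubation medium, and fresh cells overlapped each spheroid group. It fell in DMEM/F12 (-0.96, SE 0.28, adjusted p = 0.00728) and was not called in incubation medium (0.18, 95% interval -0.40 to 0.75, adjusted p = 0.57). All incubation medium libraries were above all DMEM/F12 libraries (log2 fold change 1.14, SE 0.27, adjusted p = 0.0078).

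Of the sodium-coupled SLC38 carriers, SLC38A5 (ENSSSCG00025065101), a carrier of glutamine, histidine and glycine, was at 3.31, 3.77, 4.86 and 3.92 CPM in fresh cells, 24.1, 31, 41.5 and 25.5 in DMEM/F12 and 38.1, 37.1, 48.1 and 35.1 in incubation medium. Every spheroid library was above every fresh cell library. The rise was 7.68-fold in DMEM/F12 (log2 2.94, SE 0.21, adjusted p = 2.11e-08) and 9.98-fold in incubation medium (log2 3.32, SE 0.21, adjusted p = 6.29e-09). The media overlapped and were not called apart (0.38, adjusted p = 0.099). They were called apart with the replicate block (0.39, adjusted p = 0.00499) and without DMEM/F12 spheroid 3 (0.56, 0.00959), with adjusted p over all alternatives from 0.00499 to 0.276.

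SLC38A1 (ENSSSCG00025015995) and SLC38A2 (ENSSSCG00025015858) both take up glutamine, alanine and other small neutral amino acids. In the RefSeq annotation of Sscrofa11.1 they lie on the same chromosome with 1 protein-coding gene between them, followed directly by SLC38A4. SLC38A1 was at 55.2, 47.2, 40.9 and 49.5 CPM in fresh cells, 96.9, 109, 86.1 and 89.1 in DMEM/F12 and 82.9, 84.6, 66.5 and 84.2 in incubation medium, and it rose in both media (0.98 and 0.72, adjusted p = 2.45e-06 and 4.88e-05). SLC38A2 was at 249, 248, 202 and 195 CPM in fresh cells, 146, 149.8, 169 and 154 in DMEM/F12 and 165, 147, 169 and 138 in incubation medium, and it fell in both (-0.53 and -0.53, adjusted p = 0.000292 and 0.000295). The neighbours therefore moved in opposite directions against fresh cells, with no overlap of groups for either gene. SLC38A4 had at most 1.5 counts in any library. Between the media the log2 fold change of SLC38A2 was 0.00 (95% interval -0.21 to 0.22) and that of SLC38A1 -0.26 (adjusted p = 0.0959). The latter was called with the replicate block (-0.26, adjusted p = 0.0208) and with library totals (-0.36, 0.0290), with adjusted p over all alternatives from 0.0208 to 0.266. Counts were not whole in 5 of 12 libraries for each of the pair.

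SLC38A11 (ENSSSCG00025051253) fell in both media. It was at 11.1, 13.6, 16.8 and 11.6 CPM in fresh cells, 1.46, 1.39, 1.85 and 1.44 in DMEM/F12 and 2.74, 3.74, 3.57 and 3.09 in incubation medium, and the 3 ranges were separate. The log2 fold changes were -3.10 (SE 0.20, adjusted p = 9.66e-09) and -2.01 (SE 0.18, adjusted p = 2.5e-07), and between the media 1.09 (adjusted p = 0.00235). SLC38A6 (ENSSSCG00025055529) was called in no comparison, at 19.7 ± 1.73, 21 ± 2.29 and 22.1 ± 1.94 CPM (mean ± SD, n = 4), with 95% intervals of -0.15 to 0.33 and -0.08 to 0.40 for its log2 fold changes against fresh cells. The remaining neutral carriers SLC38A3, SLC6A14, SLC6A15 and SLC6A18 were not tested and reached at most 4, 9.5, 22 and 1 counts.

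**Figure D2:**
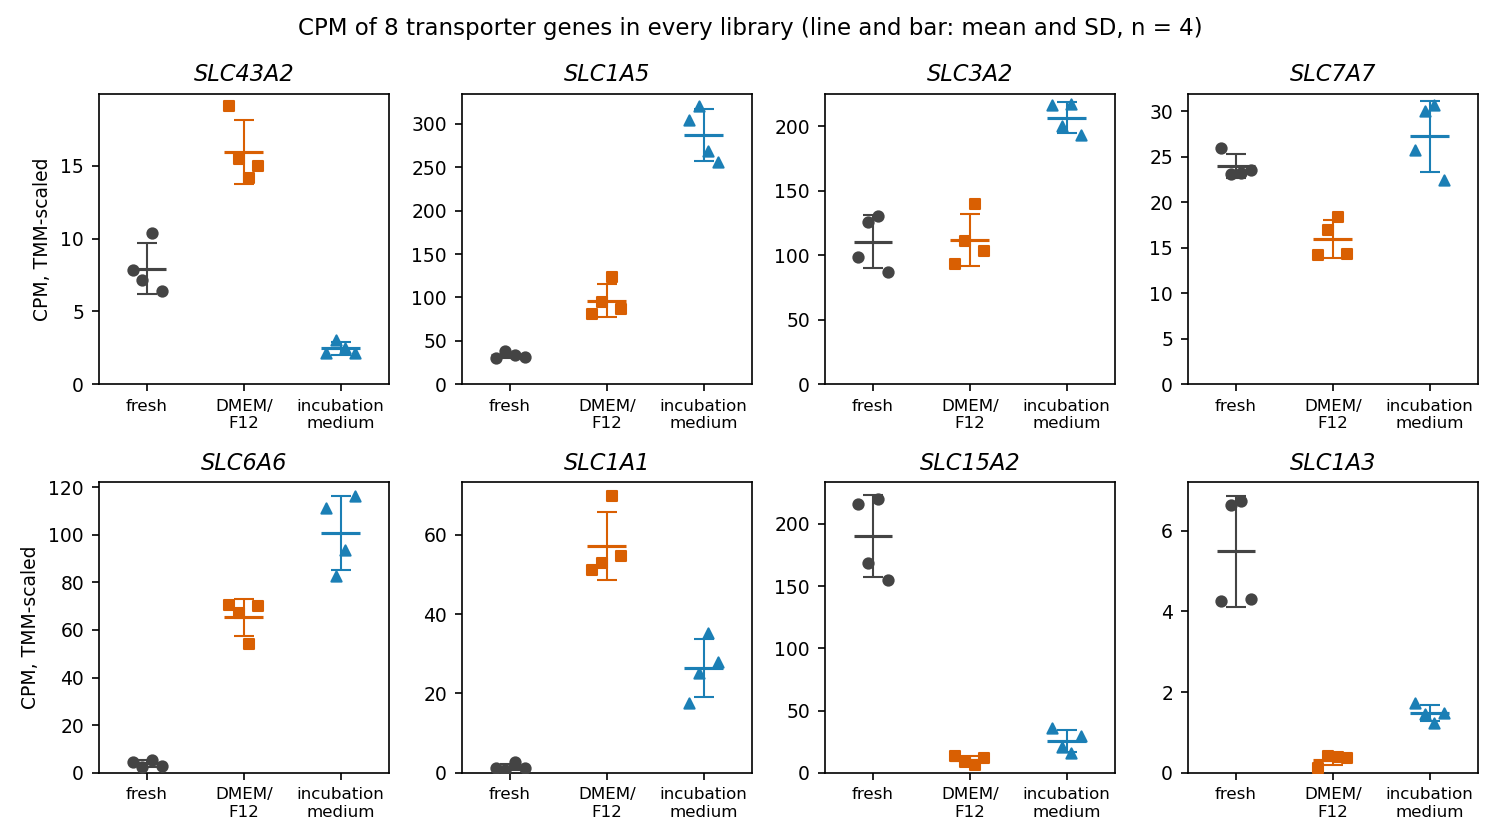
CPM in every library for 8 transporter genes; points are libraries, horizontal lines and bars are the mean and SD of 4 libraries per group, and each panel starts at 0 on its own scale. SLC43A2 is highest in DMEM/F12 and lowest in incubation medium, SLC1A5 and SLC6A6 are highest in incubation medium, and SLC15A2 and SLC1A3 are highest in fresh cells.

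Of the 3 tested glutamate carriers, SLC1A1 and SLC1A6 rose in both media and SLC1A3 fell in both. Among all tested genes 70.7% and 71.7% were called in these comparisons. SLC1A1 (ENSSSCG00025040158), a high-affinity sodium-coupled carrier of glutamate, aspartate and cysteine found in many epithelia, had 7, 4, 14 and 6 counts in fresh cells, or 1.22, 0.717, 2.62 and 1.18 CPM. It reached 51.2, 52.9, 69.9 and 54.8 CPM in DMEM/F12 and 17.5, 25.2, 35.3 and 27.9 CPM in incubation medium. The 3 ranges were separate, with DMEM/F12 highest. The rise was 39.6-fold in DMEM/F12 (log2 5.31, SE 0.29, adjusted p = 2.08e-09) and 18.4-fold in incubation medium (log2 4.20, SE 0.31, adjusted p = 2.64e-08). Among all 14070 tested genes it ranked 59th and 105th by upward log2 fold change. In incubation medium it was 2.16-fold lower than in DMEM/F12 (log2 -1.11, SE 0.19, adjusted p = 0.000816).

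SLC1A3 (ENSSSCG00025017571), a glutamate carrier best known from astrocytes, went the other way. It was at 4.26, 6.64, 6.73 and 4.31 CPM in fresh cells and 1.73, 1.47, 1.23 and 1.48 CPM in incubation medium spheroids, and had 1, 3.5, 3 and 3 counts in DMEM/F12 spheroids, close to the floor. It was over the filter's level in all 4 fresh cell libraries, 3 incubation medium libraries and no DMEM/F12 library, and no groups overlapped. Without DMEM/F12 spheroid 2 the DMEM/F12 counts were at the floor, and it was at least 14.7-fold higher in fresh cells and at least 3.95-fold higher in incubation medium. Its log2 fold change was -3.95 in DMEM/F12 (SE 0.33, adjusted p = 1.07e-07) and -1.89 in incubation medium (SE 0.27, adjusted p = 1.87e-05), both falls. Its level was higher in incubation medium than in DMEM/F12 by 2.07 on the log2 scale (SE 0.37, adjusted p = 0.00117). SLC1A6 (ENSSSCG00025025515), a glutamate carrier best known from cerebellar neurons, had 3, 2, 1 and 2 counts in fresh cells, all at the floor. It had 57, 32, 30.5 and 16.5 counts in DMEM/F12 and 32, 26, 22.5 and 4.5 in incubation medium. It was at least 7.54-fold higher in DMEM/F12 (adjusted p = 0.00024) and at least 4.83-fold higher in incubation medium (adjusted p = 0.00182), against the floor of 3 counts per library. SLC1A2 and SLC1A7 were not tested and reached at most 7 and 3 counts.

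Among cationic amino acid carriers SLC7A1 (ENSSSCG00025058858), the widely expressed importer of arginine, lysine and ornithine, was at 19.1, 14.9, 12.7 and 16.1 CPM in fresh cells. It was at 35.8, 40.8, 45.1 and 45.5 CPM in DMEM/F12 and 52.4, 64.5, 57 and 55.5 CPM in incubation medium, in 3 separate ranges. It rose 2.66-fold and 3.64-fold against fresh cells (adjusted p = 2.05e-07 and 1.28e-08) and was 1.37-fold higher in incubation medium than in DMEM/F12 (adjusted p = 0.00913). SLC7A4 (ENSSSCG00025070830), related to it by sequence, fell. It was at 21.1, 20.3, 19.6 and 22.5 CPM in fresh cells, 11.2, 9.64, 10.1 and 10.3 in DMEM/F12 and 6.08, 5.87, 5.91 and 6.85 in incubation medium, again without overlap. The log2 fold changes of SLC7A4 were -1.02 (SE 0.11, adjusted p = 1.27e-06), -1.75 (SE 0.11, adjusted p = 9.5e-09) and, between the media, -0.74 (SE 0.12, adjusted p = 0.000442). SLC7A2, SLC7A3 and SLC7A14 were not tested and reached at most 14, 3.25 and 1 counts.

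The 3 tested SLC6 carriers of taurine, creatine and glycine all rose in both media and were all higher in incubation medium than in DMEM/F12. Among all tested genes 70.7% and 71.7% were called against fresh cells and 25.0% between the media. SLC6A6 (ENSSSCG00025075168), the taurine carrier, went from 4.7, 2.51, 5.42 and 2.94 CPM in fresh cells to 70.4, 67.1, 54 and 69.9 in DMEM/F12 and 111, 82.8, 93.4 and 116 in incubation medium. The 3 ranges were separate, with fresh cells lowest. The rise was 16.7-fold in DMEM/F12 (log2 4.06, SE 0.20, adjusted p = 7.01e-10) and 25.8-fold in incubation medium (log2 4.69, SE 0.20, adjusted p = 1.76e-10), ranks 141 and 75 from the top among all tested genes. The difference between the media was 0.63 (SE 0.14, adjusted p = 0.00527).

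SLC6A8 (ENSSSCG00025074580), the creatine carrier, was at 22.7, 28.2, 27.9 and 26.2 CPM in fresh cells, 57.7, 63.4, 73.4 and 69.8 in DMEM/F12 and 86.9, 78.4, 93.4 and 103 in incubation medium. The 3 ranges were separate. The log2 fold changes were 1.33 and 1.78 against fresh cells (adjusted p = 1.05e-07 and 6.38e-09) and 0.45 between the media (adjusted p = 0.00545). Its counts were not whole in 10 of 12 libraries, the most of any member, so its level is uncertain where a read was divided among features. SLC6A9 (ENSSSCG00025073280), the glycine carrier GLYT1, was at 8.88, 9.51, 9.35 and 7.84 CPM in fresh cells, 17.7, 34, 37.5 and 22.2 in DMEM/F12 and 44.2, 47.9, 39.3 and 39.6 in incubation medium, again with no overlap. It rose by 1.64 and 2.26 (adjusted p = 8.79e-06 and 3.15e-07). The difference between the media was 0.62 (adjusted p = 0.0242). It was not called without DMEM/F12 spheroid 4 (0.52, adjusted p = 0.0749) or incubation medium spheroid 1 (0.60, 0.0516) or 2 (0.56, 0.0692), with adjusted p over all alternatives from 0.00384 to 0.0749. The transmitter carriers SLC6A2, SLC6A3, SLC6A11 and SLC32A1 were not tested. The noradrenaline carrier SLC6A2 had 2, 8, 8 and 2 counts in fresh cells and at most 1 in a spheroid library, and SLC6A3, SLC6A11 and SLC32A1 had at most 1 count in any library.

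Of the peptide carriers SLC15A2 (ENSSSCG00025022835), which takes up di- and tripeptides with protons at high affinity, was at 216, 169, 220.0 and 155 CPM in fresh cells. It was at 13.7, 8.94, 6.35 and 11.8 CPM in DMEM/F12 and 35.7, 20.8, 16 and 29.4 CPM in incubation medium. The fresh cells stood far above both, and all incubation medium libraries were above all DMEM/F12 libraries. It was 18.6-fold lower in DMEM/F12 (log2 -4.22, SE 0.26, adjusted p = 5.58e-09) and 7.45-fold lower in incubation medium (log2 -2.90, SE 0.24, adjusted p = 8.32e-08). Between the media the difference was 1.32 (SE 0.26, adjusted p = 0.00198), and counts were not whole in 8 of 12 libraries. SLC15A1 (ENSSSCG00025020959), the low-affinity peptide carrier of the intestine, had 1 to 4.5 counts in fresh cells, 10 to 20 in DMEM/F12 spheroids and 9 to 15 in incubation medium spheroids. It rose by 1.77 and 1.33 (adjusted p = 0.000755 and 0.00778), and by 2.36 in DMEM/F12 with thinned counts. It was over the filter's level in 3 libraries of each medium and in no fresh cell library. SLC15A1 thus passed the filter through spheroid libraries alone. Fits of only the groups compared did not test it against fresh cells. SLC15A3 (ENSSSCG00025042388), a lysosomal carrier of histidine and peptides, fell in both media, from 20.7 ± 2.51 to 10.7 ± 2.11 and 12.5 ± 2.68 CPM (mean ± SD, n = 4; log2 -0.95 and -0.73, adjusted p = 0.000263 and 0.00192). SLC15A5 did not exceed 3 counts.

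SLC43A2 (ENSSSCG00025075759), a carrier that lets branched-chain amino acids, phenylalanine and methionine pass down their gradient, was the single tested member called in opposite directions in the 2 media. It was at 7.83, 7.17, 10.4 and 6.37 CPM in fresh cells, 19.1, 15.4, 14.2 and 14.9 in DMEM/F12 and 2.15, 3.07, 2.46 and 2.15 in incubation medium. DMEM/F12 was highest and incubation medium lowest, with fresh cells between them and no overlap. It rose 2.00-fold in DMEM/F12 (log2 1.00, SE 0.17, adjusted p = 0.000123) and was 3.22-fold lower in incubation medium (log2 -1.69, SE 0.20, adjusted p = 4.08e-06). The difference between the media was 6.45-fold (log2 -2.69, SE 0.19, adjusted p = 1.17e-06), rank 31 from the bottom among 14070 tested genes. SLC16A10 (ENSSSCG00025075600), a carrier of aromatic amino acids, was at 2.7, 2.29, 1.5 and 3.23 CPM in fresh cells, 0.791, 0.813, 0.198 and 0.78 in DMEM/F12 and 0.954, 0.801, 0.677 and 0.739 in incubation medium. It fell in both media (-1.90 and -1.54, adjusted p = 0.000157 and 0.000698), on 1.5 to 16.5 counts per library that were not whole in 8 of 12. It passed the filter through its fresh cell libraries alone.

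**Figure D3:**
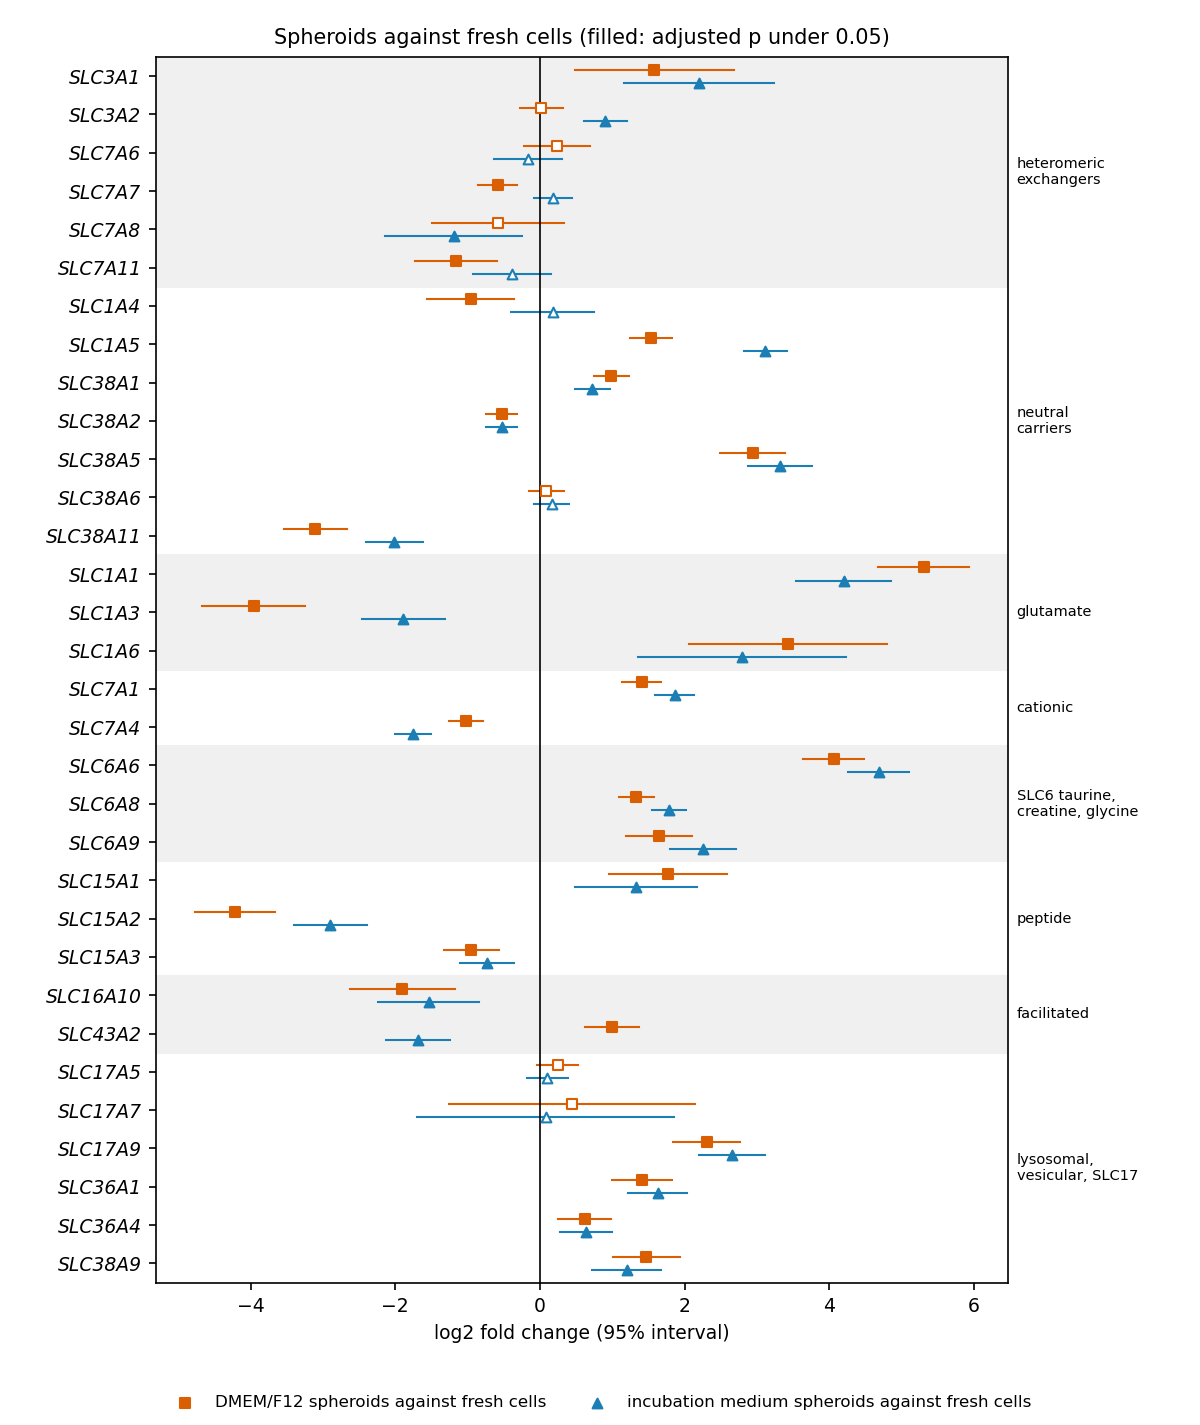
Log2 fold changes of the 32 tested transporter genes in DMEM/F12 spheroids (orange squares) and incubation medium spheroids (blue triangles) against the same 4 fresh cell libraries, with 95% intervals; filled symbols have an adjusted p under 0.05. SLC43A2 is the single gene with filled symbols on both sides of 0, the fitted values of SLC1A6 depend on fresh cell counts at the floor, and SLC17A7 has the widest intervals around 0.

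Of 6 tested carriers of the SLC17 and SLC36 families and SLC38A9, which act largely in lysosomes and vesicles, 4 rose in each medium, and the other 2, SLC17A5 and SLC17A7, were not called against fresh cells. That is 66.7% in each medium, beside 70.7% and 71.7% of all tested genes. SLC15A3, also lysosomal and given with the peptide carriers, fell in both media. Between the media the log2 fold changes of the 6 ran from -0.36 to 0.35. SLC17A9 (ENSSSCG00025058365), which loads nucleotides into vesicles, was at 2.09, 1.61, 2.06 and 2.16 CPM in fresh cells, 7.91, 10.2, 11.6 and 9.73 in DMEM/F12 and 10.1, 13.1, 16 and 11.1 in incubation medium. Every spheroid library was above the fresh cells, and the rise was 4.96-fold and 6.31-fold (adjusted p = 3.13e-07 and 6.83e-08). SLC36A1 (ENSSSCG00025036819), a proton-coupled carrier of small neutral amino acids, rose by 1.41 and 1.63 on the log2 scale (adjusted p = 1.26e-05 and 2.81e-06), and its relative SLC36A4 (ENSSSCG00025033410) by 0.62 and 0.64 (adjusted p = 0.00457 and 0.00352). SLC38A9 (ENSSSCG00025054153), the lysosomal arginine sensor of the mTORC1 pathway, rose from 2.38 ± 0.33 to 6.52 ± 1.48 and 5.38 ± 0.603 CPM (mean ± SD, n = 4; log2 1.47 and 1.20, adjusted p = 2.88e-05 and 0.000212). SLC17A5 (ENSSSCG00025026591), the lysosomal sialic acid exporter, was at 45.3, 31.4, 31.8 and 35.3 CPM in fresh cells, 50.4, 38.2, 40.2 and 41.8 in DMEM/F12 and 45.2, 38, 35.6 and 35.3 in incubation medium. The groups overlapped and no call was made, with log2 fold changes of 0.25 (95% interval -0.04 to 0.53, adjusted p = 0.108) and 0.10 (-0.18 to 0.39, adjusted p = 0.503). In DMEM/F12 it was called with the replicate block (0.25, adjusted p = 0.0120), without fresh cells 1 (0.38, 0.0130), with library totals (0.33, 0.0386) and without the filter (0.32, 0.0486), with adjusted p over all alternatives from 0.0120 to 0.261. The vesicular glutamate carrier SLC17A7 (ENSSSCG00025077499) ranged from 1 to 16 counts in fresh cells, 8 to 27 in DMEM/F12 spheroids and 1 to 30 in incubation medium spheroids. SLC17A1, SLC17A4 and SLC17A6 were not tested and reached at most 7, 12.67 and 1 counts.

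Between the media, the 12 genes higher in incubation medium were SLC1A3, SLC1A5, SLC15A2, SLC1A4, SLC38A11, SLC3A2, SLC7A11, SLC7A7, SLC6A6, SLC6A9, SLC7A1 and SLC6A8, and the 3 lower were SLC43A2, SLC1A1 and SLC7A4. Their log2 fold changes ran from 0.45 (SLC6A8) to 2.07 (SLC1A3) upward and from -0.74 (SLC7A4) to -2.69 (SLC43A2) downward. For 18 of 32 the media had no overlap, beside 27.0% of all tested genes. Of the 32, 7 (21.9%) were called and differed at least 2-fold, beside 5.44% of all tested genes. With library totals in place of TMM, 33.4% of all calls between the media were higher in incubation medium, against 50.9% with TMM, and the calls among the transporters were 11 higher and 4 lower. In summed CPM over all 53 genes, fresh cells were at 798 to 965, DMEM/F12 spheroids at 926 to 1065 and incubation medium spheroids at 1283 to 1393, a sum that depends most on genes with many counts.

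**Figure D4:**
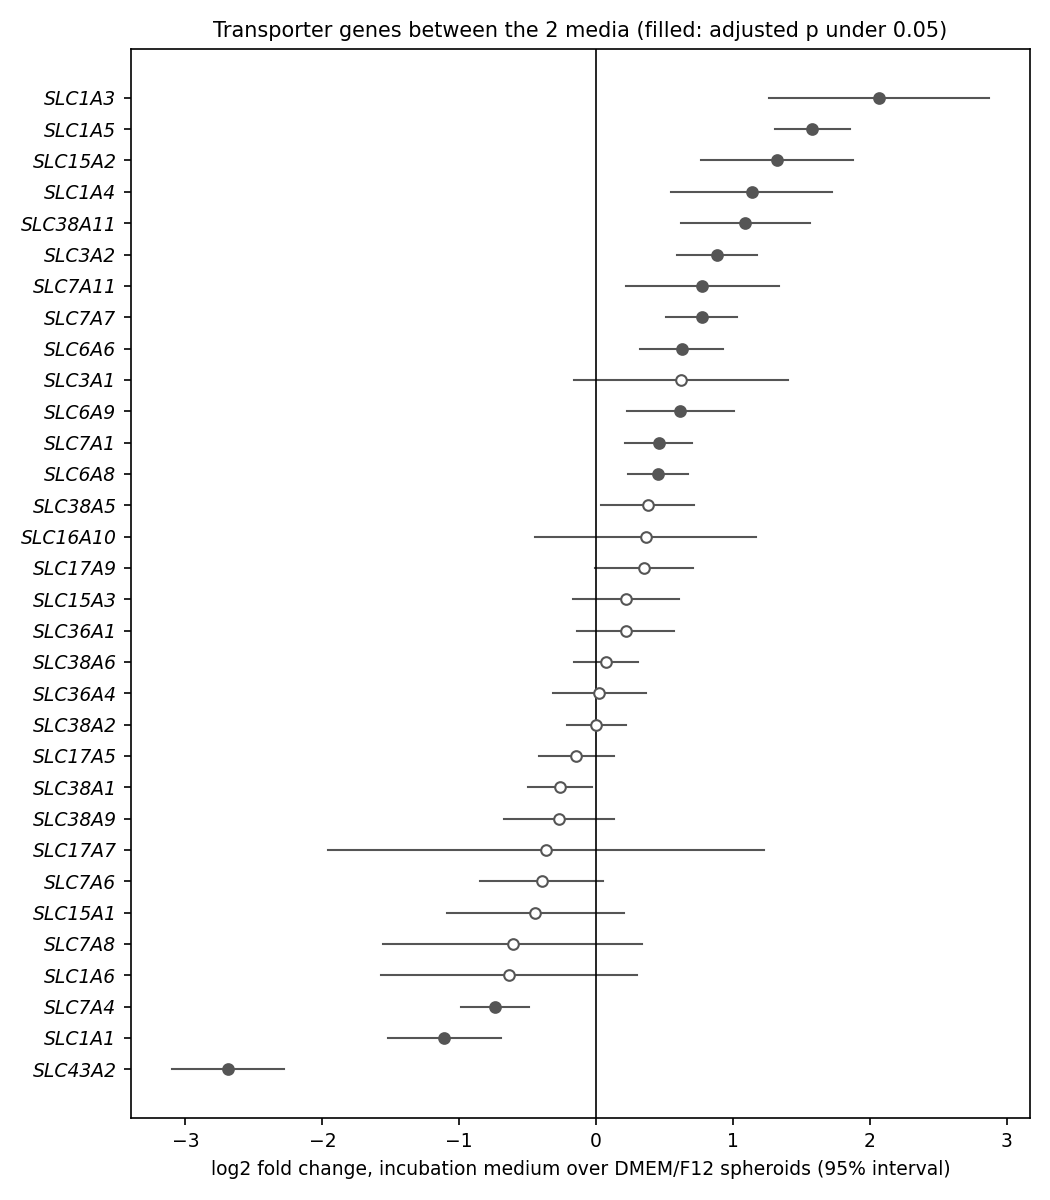
Log2 fold changes of the 32 tested transporter genes in incubation medium spheroids over DMEM/F12 spheroids, in order of size, with 95% intervals; filled circles have an adjusted p under 0.05. The 12 filled circles above 0 run from SLC6A8 to SLC1A3, and SLC43A2 lies apart at the lower end.

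Other genes of amino acid handling were followed through 4 lists. Of 16 further carriers and partners, mainly mitochondrial, 10 were tested: 6 rose and 2 fell in DMEM/F12, 5 rose and 2 fell in incubation medium, and 1 rose and 2 fell between the media. The shares called were 80.0%, 70.0% and 30.0%, beside 70.7%, 71.7% and 25.0% of all tested genes, and the median log2 fold changes were 0.56, 0.40 and -0.03. SLC25A29, a mitochondrial carrier of basic amino acids, fell from 171 ± 26.1 CPM (mean ± SD, n = 4) to 56.9 ± 7.66 and 57.1 ± 5.36. SLC25A13, a mitochondrial aspartate and glutamate carrier, rose from 21.8 ± 2.84 to 43.5 ± 3.38 and 36.5 ± 6.22, and the glutamate carrier SLC25A22 from 23.8 ± 3.97 to 29.9 ± 3.26 and 42.7 ± 3.7. ARL6IP5, a protein that binds the SLC1A1 carrier, rose in DMEM/F12 (log2 0.81, adjusted p = 1.89e-06), was not called in incubation medium (0.07, adjusted p = 0.523) and was lower in incubation medium than in DMEM/F12 (-0.75, adjusted p = 5.38e-05).

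In the list of amino acid sensing and mTORC1, the kinase complex that drives growth when amino acids are present, 30 of 40 genes were tested. In DMEM/F12 12 rose and 5 fell, in incubation medium 14 rose and 10 fell, and between the media 3 rose and 4 fell, with medians of 0.10, 0.25 and 0.04. The shares called were 56.7%, 80.0% and 23.3%, beside 70.7%, 71.7% and 25.0% of all tested genes. The 10 falls were 6 without incubation medium spheroid 2, and the 4 were 2 without that library or without DMEM/F12 spheroid 1. EIF4EBP1, a translation inhibitor that mTORC1 switches off, rose from 20.2 ± 2.23 CPM to 177 ± 39.2 and 253 ± 31.1 (mean ± SD, n = 4). Its counts were not whole in 66.7% of libraries. LAMTOR5, of the complex that anchors mTORC1 to the lysosome, rose by 1.09 and 1.10 on the log2 scale and the GATOR2 subunit SEC13 by 0.63 and 0.52. RHEB, the activator of mTORC1, rose in incubation medium (0.34, adjusted p = 0.0263) and was not called in DMEM/F12 (0.16, adjusted p = 0.251).

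The general amino acid response, which cells mount through the factor ATF4 when amino acids run short, had 14 of 18 genes tested. In DMEM/F12 6 rose and 5 fell, in incubation medium 8 rose and 4 fell, and between the media 6 rose and 3 fell, with medians of -0.13, 0.78 and 0.46. The shares called were 78.6%, 85.7% and 64.3%, beside the same 70.7%, 71.7% and 25.0%. ATF4 was at 461 ± 109.8 CPM in fresh cells, 342 ± 47 in DMEM/F12 and 457 ± 25.7 in incubation medium (mean ± SD, n = 4), a fall in DMEM/F12 (-0.43, adjusted p = 0.017) that was not called in incubation medium (-0.01, adjusted p = 0.935). The stress genes ATF3 and PPP1R15A fell in DMEM/F12 (log2 -4.98 and -3.13) and in incubation medium (-5.56 and -3.88), and NUPR1 rose by 3.68 and 2.93. Of 40 enzymes of amino acid metabolism, 31 were tested. In DMEM/F12 12 rose and 11 fell, in incubation medium 15 rose and 9 fell, and between the media 10 rose and 1 fell, with medians of -0.04, 0.34 and 0.12. The shares called were 74.2%, 77.4% and 35.5%, near those of all tested genes against fresh cells (70.7% and 71.7%) and beside 25.0% between the media. The 1 fall became 3 without DMEM/F12 spheroid 3 and 2 without incubation medium spheroid 1. GLUD1, which converts glutamate to 2-oxoglutarate, rose from 128 ± 10.8 to 664 ± 49.5 and 626 ± 19.6 CPM. PSAT1, of serine synthesis, fell in DMEM/F12 (-1.36, adjusted p = 3.53e-06), rose in incubation medium (0.86, adjusted p = 0.000207) and differed between the media by 2.23 (adjusted p = 1.35e-06). The polyamine enzyme ODC1 fell (log2 -0.36 and -0.66), as did OAT, an ornithine enzyme (-1.25 and -1.23). Over all tested genes the median log2 fold changes were -0.01, -0.01 and 0.00 in the 3 comparisons.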

How the data were processed

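Poly(A) RNA from 12 libraries was primed with oligo-dT, tagmented and amplified by PCR, per the labels' protocols. Per the submitters' processing notes, fastp 0.24.0, STAR 2.7.11, SAMtools 1.22.1 and featureCounts of Subread 2.1.1 were used. The genome build, annotation, strand setting and any use of molecular identifiers are not given in the sources used here. The deposited table holds expected counts, of which 19.1% to 20.5% of values above 0 per library were not whole, as where a read is divided among features, and a CPM column per library that equals the count divided by its library total. All 12 value columns of each kind belong to listed samples. Library sizes and tests use gene rows alone, without 92 rows of spike-in RNA.

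Expected counts were rounded, filtered with filterByExpr and fitted with edgeR 4.0.16 (R 4.3.3; TMM, quasi-likelihood F-test, all 3 groups in one fit, no covariate) over 14070 genes, with Benjamini-Hochberg adjustment and a threshold of 0.05. The CPM printed here were recomputed from the deposited expected counts over TMM library sizes. The common biological coefficient of variation was 0.146. Depth was 5045187 to 8603774 counts, so fresh cell libraries have the higher floors. Reads from PCR are not independent molecules, so floors cover counting error only. The test was checked on simulated data with 200 of 14070 genes changed in DMEM/F12 spheroids, as many up as down. It recovered 90 of 100 changes of 2-fold and 100 of 100 of 4-fold, with 10 false calls. In the measured data 70.7% of genes were called in that comparison, so scaling under such broad change was not checked.

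The transporter genes, gene lists and marker lists were chosen with earlier results of these data known. Values in every library were due for SLC43A2, the 12 tested members of highest mean CPM, and the 5 largest log2 fold changes in each direction among called members of any comparison. Others were given by fold change or range, with library values added for some after they were seen. From each pathway list, up to 4 called members of highest mean CPM were named.

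Libraries of the same replicate number deviated together from their group means in all 12 pairs across groups (correlation 0.196 to 0.516, against -0.318 to 0.0233 for different numbers), and 12 of 12 libraries correlated best with their own number. By that criterion the numbers pair the libraries. The labels do not say what a number stands for. A fit with the number as a block was an alternative, beside DESeq2 1.42.0, limma-voom (limma 3.58.1), library totals, other filters, truncated counts, only the groups compared, each library left out and, chosen after seeing the data, counts thinned to the smallest library. Gene symbols are those of the table. Of the 53 members, all 53 had a symbol in RefSeq's Sscrofa11.1 annotation, used only for neighbouring genes. No positions or sequences are given. The values of 1 untested member are not reported here.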

Additional observations from a re-analysis of the deposited data

Results flagged for a closer look

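SLC43A2 was flagged because its change against fresh cells differed between the media: log2 fold change 1.00 in DMEM/F12 and -1.69 in incubation medium, a difference of -2.69 (edgeR's quasi-likelihood test, adjusted p = 1.17e-06). Every DMEM/F12 library was above and every incubation medium library below all fresh cell libraries.

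In 8 of 96 sets of 4 libraries (32 genes in 3 groups), 1 library lay far from the other 3 by Dixon's test, which chance gives in about 1 of 20 sets. Among DMEM/F12 spheroids, SLC15A1 was at 1.2 CPM in spheroid 4 (others 2.32 to 2.43), SLC16A10 at 0.198 in spheroid 3 (others 0.780 to 0.813), SLC1A3 at 0.122 in spheroid 1 (others 0.360 to 0.407; 1 count against 3 to 3.5, at or next to the floor) and SLC38A11 at 1.85 in spheroid 3 (others 1.39 to 1.46). Among incubation medium spheroids, SLC38A1 was at 66.5 CPM in spheroid 3 (others 82.9 to 84.6) and SLC7A11 at 29.9 in spheroid 1 (others 15.4 to 17.6). Among fresh cells, SLC7A6 was at 7.11 CPM in library 3 (others 4.48 to 4.90) and SLC7A7 at 25.9 in library 1 (others 23.1 to 23.5).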

How the results depend on the processing

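Over 21 alternatives no count of called transporters moved beyond 1.5 times. Against fresh cells 14 to 18 rose and 9 to 14 fell in DMEM/F12, and 13 to 18 rose and 8 to 12 fell in incubation medium. Between the media 10 to 14 rose and 3 to 4 fell. SLC7A7 and SLC7A8, whose library values were added later, are left out of the next counts, and their changed calls are given with those genes. Of 1314 alternative values for the 21 genes due by library, 1277 kept direction and side of the threshold, 11 lost and 10 gained a call, and 16 changed sign, all of them uncalled and near 0. The sign changes were SLC3A2 in DMEM/F12 (-0.0104 with a mean of at least 10 counts, -0.0267 thinned, and -0.0906 to 0.112 with single libraries left out, below 0 without fresh cells 1, fresh cells 4 or DMEM/F12 spheroid 3) and SLC1A4 in incubation medium (-0.0168 without fresh cells 1, highest 0.503 without fresh cells 2). The rest were SLC38A2 between the media: -0.0890 with library totals, -0.0073 without the filter, -0.0021 with a mean of at least 10 counts and -0.00062 with limma-voom. With single libraries left out it ran from -0.0423 to 0.0545, below 0 without DMEM/F12 spheroids 1, 2 or 4 or incubation medium spheroids 1 or 3. The cause was not tested.

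With the replicate block, SLC38A2 between the media was at -0.0026. The block gained the calls of SLC17A5, SLC7A11, SLC38A1 and SLC38A5 given with those genes and changed no other call of a transporter. It made the falling enzymes between the media 2, as did DESeq2 and library totals, against 1. A mean of at least 10 counts and thinning each dropped the called genes SLC3A1 and SLC16A10 from the test, and fits of only the groups compared dropped up to 3 called genes of low counts. Depth limits SLC1A3 in DMEM/F12, SLC1A6 in fresh cells and the 21 untested genes.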

Other observations

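Enzymes and response genes that differed between the media are named here after their values were seen. Of the enzymes, CBS, of cysteine synthesis from homocysteine, was at 7.13 ± 1.03 CPM in DMEM/F12 and 26.9 ± 4.95 CPM in incubation medium (mean ± SD, n = 4), a log2 fold change of 1.91. BCAT1, which transaminates branched-chain amino acids, was at 14.6 ± 2.42 and 54.8 ± 19.0 CPM (1.91). GCLC, of glutathione synthesis, was at 17.4 ± 3.46 and 52.4 ± 6.80 CPM (1.59). GPT2, of alanine metabolism, was at 19.4 ± 1.16 and 46.2 ± 5.88 CPM (1.25). GAMT, of creatine synthesis, was the 1 enzyme that fell, from 17.8 ± 1.5 to 12.2 ± 2.56 CPM (-0.55). Among response genes, ATF5 was at 9.59 ± 1.63 and 44.4 ± 11.7 CPM (2.21) and STC2 at 6.98 ± 3.02 and 27.8 ± 6.21 CPM (1.99). The adjusted p of these 7 genes in edgeR's quasi-likelihood test was at most 0.0118. In the same test 3 response genes were lower in incubation medium than in DMEM/F12. They were NUPR1 (-0.76, adjusted p = 0.0413), PPP1R15A (-0.75, adjusted p = 0.000354) and ATF3 (-0.58, adjusted p = 0.00491).

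Some transporters that did not pass the filter were at the floor in all libraries of a group and above it in some or all libraries of another. The noradrenaline carrier SLC6A2 was at least 2.5-fold lower in DMEM/F12 and at least 2.40-fold lower in incubation medium than in fresh cells, against the floor of 3 counts per library. Fresh cells 1 and 4 had 2 counts each, at the floor themselves, and fresh cells 2 and 3 had 8 each. SLC17A4 was at least 2.91-fold lower in DMEM/F12 than in fresh cells and at least 3.82-fold higher in incubation medium than in DMEM/F12, its counts being fractional in 9 of 12 libraries. Fresh cells 1 to 4 had 10.5, 3, 6.25 and 3.83 counts of it, at or near the floor in some. SLC1A2 was at least 1.84-fold higher in incubation medium than in DMEM/F12 and at least 1.23-fold higher than in fresh cells. These bounds compare a group mean with the floor and cover counting error only. In edgeR's quasi-likelihood test without the filter, SLC6A2 was called lower in DMEM/F12 (adjusted p = 0.000316) and in incubation medium (adjusted p = 0.00114). SLC17A4 was called lower in DMEM/F12 than in fresh cells (adjusted p = 0.00517) and higher in incubation medium than in DMEM/F12 (adjusted p = 0.00135). SLC1A2 was called higher than in fresh cells in DMEM/F12 (adjusted p = 0.0414), where both groups were at the floor. It was also called higher in incubation medium than in fresh cells (adjusted p = 0.00146), and was not called between the media (adjusted p = 0.249). SLC17A4 also passed the filter in 9 of the fits that left out a library. There the filter asks for fewer libraries, so it passed where its 1 fresh and 2 incubation medium libraries over the filter's level stayed in. These fits are therefore no separate support. Their adjusted p was from 0.000715 to 0.00595 in DMEM/F12 against fresh cells and from 0.000738 to 0.00399 between the media.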
